A study of Homo sapiens with 2 samples.

Results

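The 10 genes described here are 9 members of the BCL2 family and AIFM1, an apoptosis gene outside the family. They were taken by name, and peaks were assigned to each gene by its RefSeq position in the genome build GRCh38: a gene was said to have a peak when a peak shared a base with the gene or lay within 3 kb of either end. The 10 genes were compared with all 20037 protein-coding genes on chromosomes 1 to 22, X and Y. Cell death is restrained by 3 of them (BCL2, BCL2L1 and MCL1) and promoted by 7 (the effectors BAX and BAK1, the BH3-only genes BID, BBC3, BCL2L11 and PMAIP1, and AIFM1).

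TFK-1 cells come from a human cancer of the bile ducts outside the liver. Stable TFK-1 lines were made with a lentivirus for Flag-tagged HOXA5 (LV-HOXA5) or with its negative control virus (LV-HOXA5-NC), both selected with puromycin, and an anti-Flag antibody was used for CUT & Tag in both. CUT & Tag brings a transposase to the antibody, so that DNA near the tagged protein is cut and sequenced. Each condition had 1 library from 1000000 cells, so a difference between the conditions has no replicate check and no test. Whether a line was a pool of cells or a clone, and whether the control cells made a Flag-tagged protein, is not given in the sources used here. Since HOXA5 was expressed from a virus and carried a tag, the peaks describe at most the tagged protein at the level these cells made. They were called in each library alone, and whether a given peak depended on the tagged protein was not tested.

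BCL2 family proteins decide whether the outer mitochondrial membrane is opened. BCL2, BCL2L1 (which encodes BCL-XL) and MCL1 hold the effectors BAX and BAK1 in check. BH3-only proteins, among them BID, BBC3 (PUMA), BCL2L11 (BIM) and PMAIP1 (NOXA), release or activate these effectors, whereupon cytochrome c leaves the mitochondrion and caspases are activated. AIFM1 encodes a flavoprotein of the space between the mitochondrial membranes that supports the respiratory chain and, once released, moves to the nucleus and takes part in death without caspases. The comparison asked which of these genes carried anti-Flag peaks in the LV-HOXA5 cells. It also asked whether peaks lay at genes that restrain death, at genes that promote it, or at both.

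In the LV-HOXA5 cells, 2 of the 10 genes had a peak, AIFM1 and BCL2L1. The background was close to this: 20.7% of all protein-coding genes (4143 of 20037) had an LV-HOXA5 peak by the same rule, against 20% of the members (exact 95% binomial interval 2.52 to 55.6%). The peak of AIFM1 covered the start of the gene, and 20 fragments lay over its summit (the pileup), 6.82 times the local background on the peak caller's scale. The peak of BCL2L1 lay inside the gene and far from its starts, with 14 fragments and a fold of 3.12. BCL2, MCL1, BAX, BAK1, BID, BBC3, BCL2L11 and PMAIP1 had no peak, and their nearest ones lay between 21.0 and 650 kb away. In the LV-HOXA5-NC cells 0 of the 10 genes had a peak, where 0.649% of protein-coding genes had one and 0.0694% had one within 3 kb of a listed start.

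The pileup is the number of fragments over the summit of a peak, and the fold enrichment sets it against the local background of the same library. The LV-HOXA5 library held 15778555 fragments and 8043 peaks, with a median pileup of 17 and a median fold of 4.82. The LV-HOXA5-NC library held 1948734 fragments, 12.4% as many, and 635 peaks. At the genome-wide background, a pileup of 8 was needed for a call in the former and of 4 in the latter.

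The bases before the start of AIFM1 were shown because they were the only window of a member that lay under a peak. Those of BCL2, BCL2L1 and BAX were shown as examples of either direction without a peak at the start. Of the windows of BCL2L1, the one before the start farthest out was printed. Those of BAK1 and BID were chosen after the motif counts were seen, because they alone among the members held TGATNNAT (BAK1) or the palindrome TAATTA (BID), and of the 5 windows of BID the one with that palindrome was taken. Each window holds the 250 bases before a start, from RefSeq (GRCh38.p14), read along the gene. Capitals mark 4 motifs on either strand. TAAT is the core that homeodomain proteins such as HOX factors are known to read, and the palindrome TAATTA contains it. A HOX protein with a PBX partner is known to read TGATNNAT, and the factor NF-Y the box CCAAT. Read on the other strand, the core appears as ATTA and the box of NF-Y as ATTGG. The windows are AIFM1 on the minus strand of chrX:130165842-130166091, BCL2 on the minus strand of chr18:63319770-63320019, BCL2L1 on the minus strand of chr20:31723964-31724213, BAX on the plus strand of chr19:48954625-48954874, BAK1 on the minus strand of chr6:33580277-33580526, and BID on the minus strand of chr22:17774666-17774915.
AIFM1: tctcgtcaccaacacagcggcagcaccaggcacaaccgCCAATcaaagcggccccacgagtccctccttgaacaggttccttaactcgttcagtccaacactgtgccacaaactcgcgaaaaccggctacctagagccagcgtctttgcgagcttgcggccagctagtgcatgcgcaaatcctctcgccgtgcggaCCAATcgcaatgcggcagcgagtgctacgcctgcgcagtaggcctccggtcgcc
BCL2: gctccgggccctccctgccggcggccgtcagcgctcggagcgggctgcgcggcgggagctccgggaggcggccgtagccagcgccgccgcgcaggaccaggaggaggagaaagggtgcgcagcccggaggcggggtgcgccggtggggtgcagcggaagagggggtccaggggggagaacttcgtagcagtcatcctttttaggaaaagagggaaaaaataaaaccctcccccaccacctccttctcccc
BCL2L1: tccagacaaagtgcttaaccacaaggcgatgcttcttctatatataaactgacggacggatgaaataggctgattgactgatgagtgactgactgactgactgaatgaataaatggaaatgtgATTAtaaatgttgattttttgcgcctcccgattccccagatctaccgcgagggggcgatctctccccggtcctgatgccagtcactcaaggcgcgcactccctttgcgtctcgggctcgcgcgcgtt
BAX: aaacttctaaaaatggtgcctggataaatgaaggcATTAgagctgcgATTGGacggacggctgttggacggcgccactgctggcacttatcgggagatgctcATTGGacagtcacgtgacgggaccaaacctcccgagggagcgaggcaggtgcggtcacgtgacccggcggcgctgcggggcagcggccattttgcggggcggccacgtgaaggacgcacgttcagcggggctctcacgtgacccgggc
BAK1: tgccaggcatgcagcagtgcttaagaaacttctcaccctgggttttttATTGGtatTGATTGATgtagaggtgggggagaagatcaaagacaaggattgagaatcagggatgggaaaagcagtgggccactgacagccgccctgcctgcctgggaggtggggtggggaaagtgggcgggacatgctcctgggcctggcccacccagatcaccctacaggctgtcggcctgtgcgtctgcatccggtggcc
BID: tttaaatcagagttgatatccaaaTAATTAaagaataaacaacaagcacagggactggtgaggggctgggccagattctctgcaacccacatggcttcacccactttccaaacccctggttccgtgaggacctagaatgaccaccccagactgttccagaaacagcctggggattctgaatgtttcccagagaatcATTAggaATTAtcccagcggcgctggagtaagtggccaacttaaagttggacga

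In the AIFM1 window the marked letters were CCAAT alone, which began 212 and 54 bases before the start. It held neither the TAAT core nor the HOX and PBX motif TGATNNAT, and 60.8% of its bases were G or C. The BCL2 window held none of the marked letters. In the printed BCL2L1 window TAAT began 127 bases before the start, whereas the other window of BCL2L1 held none of the marked motifs. In the BAX window TAAT began 215 bases and CCAAT 203 and 148 bases before the start. TGATNNAT was found for 1 member, BAK1, 194 bases before its start and next to a CCAAT at 202 bases. TAATTA was found for 1 member, BID, 226 bases before the start that lies farthest out among its 5 listed starts.

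RefSeq windows were matched for 9 of the 10 genes, 14 windows in all, and MCL1 had no entry. TAAT was in at least 1 window of 5 of the 9 genes (BCL2L1, BAX, BID, BBC3 and PMAIP1), and it was in 40.3% of the 22197 windows of protein-coding genes. CCAAT was in a window of 5 of the 9 genes (BAX, BAK1, BBC3, BCL2L11 and AIFM1), against 32.7% of all windows. TAATTA and TGATNNAT were in 3.15% and 4.55% of all windows. Among the 2302 windows that an LV-HOXA5 peak touched, 51.8% held CCAAT, 35.3% TAAT, 1.52% TAATTA and 2.82% TGATNNAT. Among the 19895 other windows, 30.5% held CCAAT, 40.9% TAAT, 3.34% TAATTA and 4.75% TGATNNAT. A match describes the letters and is neither a binding site nor a cause, and a gene with several starts had several windows in which to match.

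Counts were also made in the same windows of CACGTG, the E-box that MYC, MAX and MXD1 are known to read, and of GGGCGG, the box of the factor SP1, both on either strand. BAX held 4 copies of CACGTG, which began 138, 93, 45 and 14 bases before its start, and BID and BBC3 held it in 1 or more windows. It was in 7.37% of all windows, in 8.82% of those that a peak touched and in 7.21% of the others. GGGCGG was in windows of 5 genes (BAX, BAK1, BID, BCL2L11 and PMAIP1) and in 53.7% of all windows, 72.3% of those that a peak touched and 51.6% of the others. AIFM1, BCL2 and BCL2L1 held neither. The NF-Y box, the E-box and the SP1 box were thus each more frequent in windows touched by a peak, and AIFM1 held the NF-Y box alone.

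BCL2, the founding member of the family and an inhibitor of BAX and BAK1, spans 197 kb of chromosome 18 and had no peak in either list. Its nearest LV-HOXA5 peak lay 650 kb away and covered the start of SERPINB8, with a pileup of 15 and a 6.07-fold enrichment. On the other side the nearest peak lay 936 kb away, over the starts of PIGN and RELCH, with a pileup of 10. No member was farther from an LV-HOXA5 peak than BCL2, and 91.9% of protein-coding genes were nearer to one. Among the protein-coding genes over 100 kb, the class of BCL2, 34.2% had a peak. The nearest LV-HOXA5-NC peak of BCL2 lay 4952 kb away.

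BCL2L1 spans 59.5 kb of chromosome 20 on the minus strand, and its proteins include the anti-apoptotic BCL-XL. Its peak ran over 369 bp (chr20:31696174-31696542). The pileup of 14 fragments had a Poisson interval of 7.65 to 23.5, and the fold of 3.12 was above that of only 2.88% of the LV-HOXA5 peaks (rank 7811 of 8043). Its q-value of 0.0121 was close to the threshold of 0.05 at which the authors called peaks. The local background was 3.81 fragments, 2.65 times the genome-wide value, and at this background a pileup of 13 was needed for a call. The BCL2L1 peak was thus 1 fragment above the lowest pileup that could be called there. The deposited list, used whole here, is longer than the one the study's text counts, and the filter between them is not given in the sources used here. The BCL2L1 peak ranked 7816 of 8043 by q-value, so that a shorter list cut by q-value or fold could lack it, whereas that of AIFM1 ranked 1773 by q-value.

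The peak of BCL2L1 lay 26326 bp from the nearer of its 2 listed starts and also inside BCL2L1-AS1, a long non-coding RNA gene, so the peak cannot be given to either gene. Of the protein-coding genes with a listed start, 6.46% were like BCL2L1 in having a peak by the rule used here but none within 3 kb of a start. Around BCL2L1 there were 6 LV-HOXA5 peaks within 100 kb, its own included, the highest number among the members. This depended on weak peaks and on the window. With a fold at or above the median BCL2L1 had 1, as had MCL1, BBC3 and AIFM1. Within 500 kb it had 8, where BAX had 16 and BBC3 12. On the upstream side the nearest lay 14.9 kb from the gene, with a pileup of 14 and a 4.60-fold enrichment. On the other side it lay 56.7 kb away and 2077 bp from the start of ID1, with a pileup of 29 and a 3.67-fold enrichment.

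MCL1 encodes a short-lived inhibitor of BAK1, spans 5.05 kb of chromosome 1 and had no peak. Its nearest peak lay 49.5 kb away over the start of ENSA. With a pileup of 35 and a 7.75-fold enrichment, that peak had the highest fold among the nearest peaks of the 8 members without one of their own. On the other side of MCL1 the nearest peak lay 210 kb away over the start of RPRD2.

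The effectors BAX and BAK1, whose proteins form the pores in the outer membrane, had no peak. BAX, which spans 6.92 kb of chromosome 19, had LV-HOXA5 peaks on both sides within 100 kb. The nearer lay 21.0 kb away over the start of DHDH, with a pileup of 13 and a 3.53-fold enrichment, and the other 31.6 kb away over the start of RUVBL2 and 78 bp from that of GYS1, with a pileup of 20 and a 4.20-fold enrichment. BAK1, of 7.73 kb on chromosome 6, lay farther from peaks. Its nearest was 181 kb away and 87 bp from the start of KIFC1, with a pileup of 18 and a 5.27-fold enrichment, and that on the other side was 260 kb away.

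Of the BH3-only genes, BID, BBC3, BCL2L11 and PMAIP1, 0 of 4 had a peak (exact 95% binomial interval 0 to 60.2%, which holds the background of 20.7%). BID, whose product is cut by caspase 8 and so links death receptors to the mitochondrion, lay 95.2 kb from its nearest peak. That peak covered the start of BCL2L13, another gene of the BCL2 family, with a pileup of 11 and a 4.43-fold enrichment. BID was also the member nearest to an LV-HOXA5-NC peak, at 102 kb.

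BBC3 was the BH3-only gene closest to a peak, at 24.1 kb, and the peak there lay 426 bp from the start of CCDC9 with a pileup of 38 and a 5.38-fold enrichment. PMAIP1 lay 149 kb from its nearest peak, which was inside no gene and had a pileup of 15 and a 6.56-fold enrichment. BCL2L11 lay 530 kb from its own, also inside no gene and 66.9 kb from ANAPC1, the protein-coding gene closest to it, with a pileup of 20 and a 6.05-fold enrichment. After BCL2 it was the member farthest from a peak, and 89.3% of protein-coding genes were nearer to one.

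**Figure D1:**
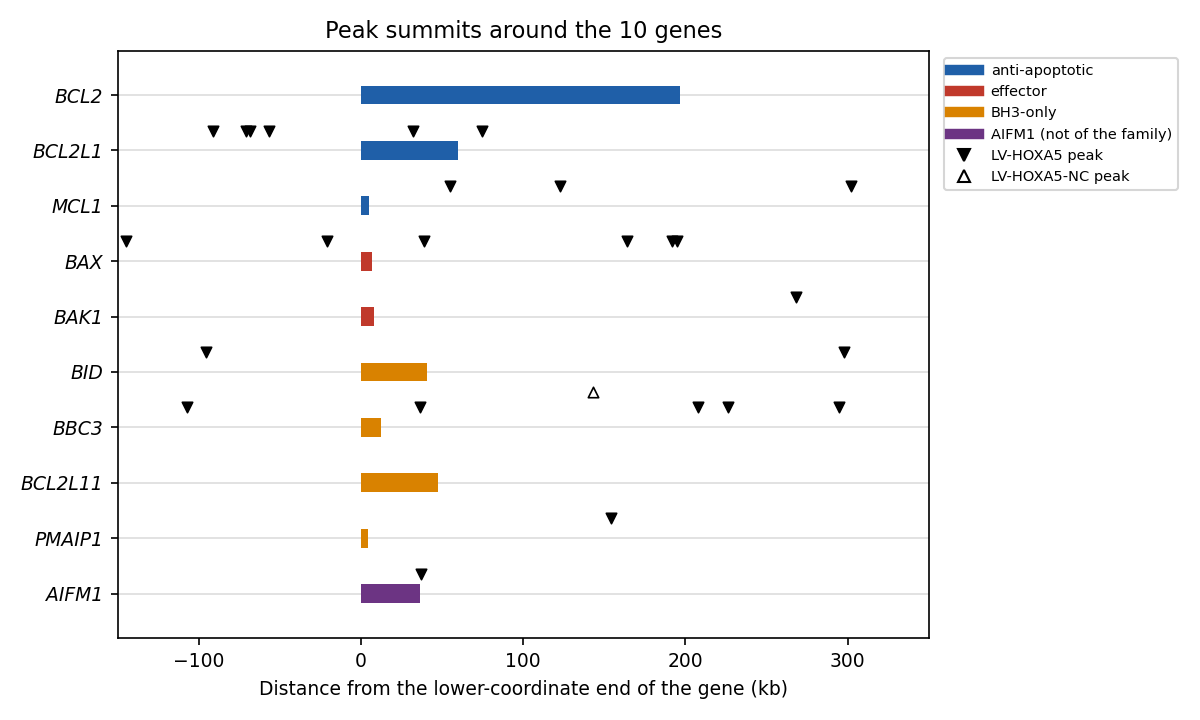
Each row is a gene, drawn as a bar to scale from its lower-coordinate end (x axis, kb), with the summits of LV-HOXA5 peaks above it (filled triangles) and of LV-HOXA5-NC peaks below it (open triangle). BCL2L1 and AIFM1 had a summit in the gene or beside its end, that of AIFM1 154 bp beyond the start, BCL2 and BCL2L11 had no summit in the range drawn, and the single LV-HOXA5-NC summit lay to the right of BID.

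AIFM1 spans 36.5 kb of the X chromosome on the minus strand. Its peak ran over 529 bp (chrX:130165729-130166257) and took in the start of the gene at position 130165841 and all 250 bases of the window before it. The summit lay 154 bp upstream of the start, between the CCAAT boxes printed above. The pileup of 20 fragments had a Poisson interval of 12.2 to 30.9, and the local background was 2.08 fragments, 1.45 times the genome-wide value. The q-value was 1.1e-10, and a pileup of 9 was needed for a call at this background.

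By fold, the AIFM1 peak ranked 1020 of 8043 and was above 87.3% of the LV-HOXA5 peaks. By pileup it was above 62.4% of them. Among the 4143 protein-coding genes with a peak, the highest fold of a gene had a median of 4.93, and that of AIFM1 was above 89.6% of them. A peak that covered a listed start was found for 8.19% of the protein-coding genes with one (1297 of 15843), and a peak within 3 kb of a listed start for 15.3%. Among the members with a listed start, AIFM1 was the 1 of 9 with either. For reference, the peak before the start of MXD1, the gene the study followed, had a pileup of 32 and a 7.36-fold enrichment, and the peak at HOXA5 itself had a pileup of 44 and a 7.55-fold enrichment. At HOXA5, the gene and the viral copy could not be told apart.

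The AIFM1 peak also lay inside the interval of RAB33A, a gene for a small GTPase whose RefSeq interval on the X chromosome contains AIFM1. No start of another gene with a listed start lay within 3 kb of the peak. RAB33A had no listed start, so whether the peak lay near its start could not be checked. Other LV-HOXA5 peaks were far away, at 223 kb over the start of UTP14A on one side and 737 kb over the start of ENOX2 on the other. AIFM1 thus had 1 peak within 100 kb, its own, where BCL2L1 had 6. With a fold at or above the median, either gene had 1.

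**Figure D2:**
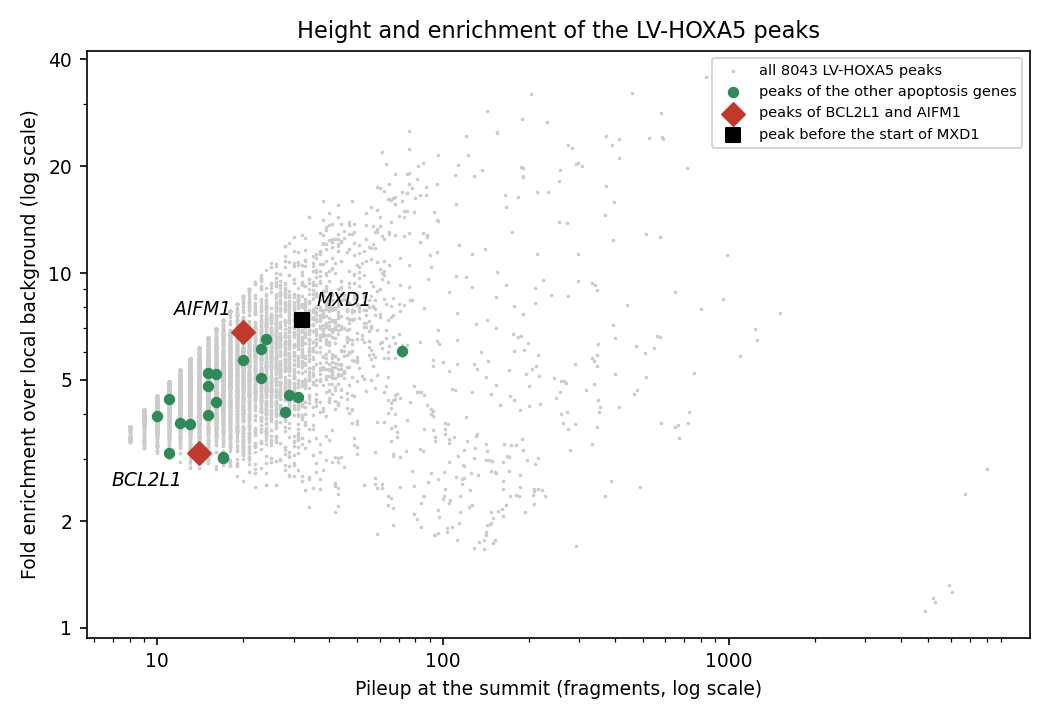
Every LV-HOXA5 peak is a grey point at its pileup (x axis, fragments, log scale) and its fold enrichment over the local background (y axis, log scale), with the peaks of BCL2L1 and AIFM1, of the other apoptosis genes and before MXD1 drawn larger. AIFM1 (20 fragments, 6.82-fold) lay in the upper range at its pileup, and BCL2L1 (14 fragments, 3.12-fold) at the lower edge of the cloud.

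Compared by direction, 1 of the 3 anti-apoptotic genes and 1 of the 7 pro-apoptotic genes had an LV-HOXA5 peak. The shares were 33.3% (exact 95% binomial interval 0.840 to 90.6%) and 14.3% (0.361 to 57.9%), and both intervals held the background of 20.7%. Without AIFM1, which is no member of the family, 0 of the 6 pro-apoptotic genes had one, which has an upper bound of 45.9%. Within 3 kb of a start the order was the other way, with 0 of 2 anti-apoptotic genes that had a listed start and 1 of 7 pro-apoptotic genes. The intervals treat the genes of a list as independent draws, whereas these lists were fixed by name, and genes are not replicates of a direction. No test between the directions was made.

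The median distance to the nearest LV-HOXA5 peak was 49.5 kb for the anti-apoptotic genes, 95.2 kb for the pro-apoptotic genes and 72.4 kb for all 10 members. Over all protein-coding genes it was 77.9 kb, with the middle 50% between 10.4 and 246 kb. The shortest distance, 0, was shared by the anti-apoptotic BCL2L1 and the pro-apoptotic AIFM1. The longest, 650 kb, was that of the anti-apoptotic BCL2, so that the ranges of the directions overlapped. Within 100 kb there were 12 LV-HOXA5 peaks around the members, of which 7 were around anti-apoptotic and 5 around pro-apoptotic genes. Of the 7, BCL2L1 alone held 6. The median per gene was 1 for either direction and 1 for all protein-coding genes. BCL2, BAK1, BCL2L11 and PMAIP1 had none within 100 kb, as did 44.8% of all protein-coding genes.

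**Figure D3:**
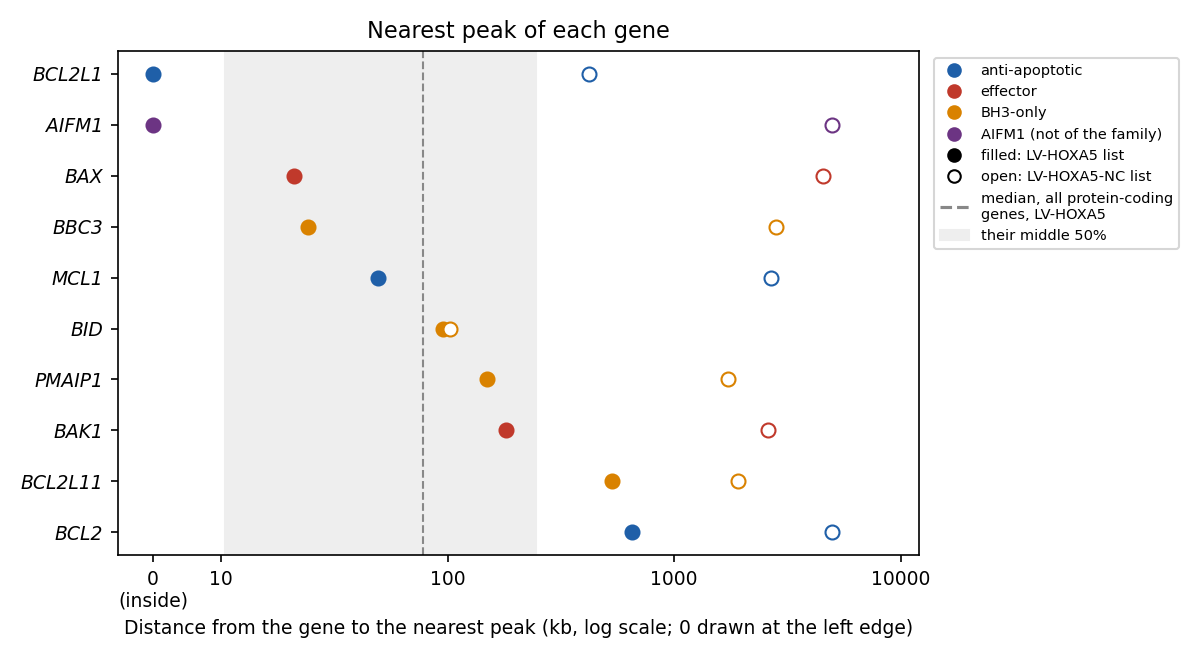
For each gene the distance to the nearest peak (x axis, kb, log scale, with 0 drawn at the left) is shown for the LV-HOXA5 list (filled) and the LV-HOXA5-NC list (open), coloured by role, with the median of all protein-coding genes (dashed line, 77.9 kb) and their middle 50% (grey). Roles were mixed along the axis, with BCL2L1 and AIFM1 at 0 and BCL2 at 650 kb in the LV-HOXA5 list.

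Longer genes more often had a peak. Among protein-coding genes of up to 10 kb 11.3% had an LV-HOXA5 peak, and MCL1, BAX, BAK1 and PMAIP1, all in this class, had none. Of genes between 10 and 50 kb 19.7% had one, and so did 1 of the 4 members in that class, AIFM1, beside BID, BBC3 and BCL2L11. BCL2L1 was in the class of 50 to 100 kb, where 26% had one. The anti-apoptotic genes spanned 261 kb in all and the 7 pro-apoptotic genes 156 kb.

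For 6 of the 8 members without a peak, the nearest peak lay within 3 kb of the start of another gene. It covered that start for 4, at SERPINB8, ENSA, DHDH and BCL2L13. The share of all LV-HOXA5 peaks that lie at a start was not counted, so these counts describe the 8 peaks only. The pileups of the 8 peaks ran from 11 to 38 and their folds from 3.53 to 7.75. These ranges held the median pileup and the median fold of the whole list.

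No peak of the LV-HOXA5-NC list overlapped the AIFM1 or the BCL2L1 peak. Over protein-coding genes such overlap made little difference, and overlaps of peaks away from genes are not given here. Without the LV-HOXA5 peaks that overlapped a control peak, 20.5% of protein-coding genes still had a peak, against 20.7% with them. The nearest LV-HOXA5-NC peak lay 4989 kb from AIFM1 and 423 kb from BCL2L1, and the median over all protein-coding genes was 4435 kb. At the fragment total of the LV-HOXA5-NC cells, the AIFM1 pileup would come to 2.47 fragments where 5 were needed for a call, and that of BCL2L1 to 1.73 where 6 were needed. A signal of the same density in the control cells would therefore not have been listed, and a difference between the conditions at these genes was not detectable at this depth.

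Among 54 other genes of the apoptosis pathway, 17 had an LV-HOXA5 peak (31.5%, exact 95% binomial interval 19.5 to 45.6%), beside the background of 20.7% and 2 of the 10 members. None had an LV-HOXA5-NC peak. Their 20 peaks had pileups of 10 to 72 with a median of 16.5, and folds of 3.02 to 6.53 with a median of 4.45. The AIFM1 peak had a higher fold than each of these 20 peaks, but it did not lead by the other measures. By pileup and by q-value the peaks of BCL2L12 (72 fragments) and CYCS (24 fragments) were above it. By pileup alone, the peaks of APAF1, BIRC3 and TNFRSF1A and the highest of CFLAR were above it as well. A peak within 3 kb of a start was found for 10 of the 41 genes with a listed start, beside 15.3% of protein-coding genes.

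Of the other BCL2 family genes, 5 of 14 had a peak (interval 12.8 to 64.9%). The interval of this list and of each that follows held the background of 20.7%. BNIP3, a BH3-only-like protein of hypoxia and mitophagy, had one over its start with a pileup of 15 and a 5.22-fold enrichment, and BCL2L13, a mitophagy receptor, had the one near BID described above. The peak of BCL2L12 had a pileup of 72 and a 6.02-fold enrichment but lay 2474 bp from the gene, 58 bp from the start of PRMT1. BCL2A1, an anti-apoptotic gene, had a 3.76-fold peak inside the gene, and BAD, a BH3-only gene, had a pair of 3.03-fold and 3.02-fold peaks near the start of GPR137. As with the members, peaks were at genes of either direction.

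Downstream of the mitochondrion, 4 of 14 genes of release and caspase activation had a peak (8.39 to 58.1%). CYCS, which encodes cytochrome c, had one 37 bp from its start with a pileup of 24 and a 6.53-fold enrichment, the fold nearest to that of AIFM1 in these lists. APAF1, the scaffold of the apoptosome, had a 6.09-fold peak over its start and that of IKBIP, and DIABLO, an antagonist of caspase inhibitors, a 5.70-fold peak over its start. The 3.11-fold peak assigned to VDAC1, a channel of the outer membrane, lay 1528 bp from the gene and 1447 bp from C5orf15. The peaks of CYCS, APAF1 and DIABLO were thus at starts, as that of AIFM1 was.

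Of the 7 caspase inhibitors 4 had a peak (18.4 to 90.1%). Within 3 kb of a start, 4 of the 5 with a listed start had one, beside 15.3% of protein-coding genes with a listed start. No interval was computed for this share, which was the highest of the lists. It was 2 of 10 for the other BCL2 family genes and 3 of 11 for release and caspase activation. It was 1 of 8 for the death receptor arm and 0 of 7 for the AIFM1 list given below. XIAP had a 5.19-fold, BIRC3 a 5.05-fold, BIRC6 a 3.97-fold and BIRC2 a 3.77-fold peak. In the death receptor arm 4 of 12 genes had one (9.92 to 65.1%). TNFRSF10B, a receptor for TRAIL, had a 4.81-fold peak, TNFRSF1A, a receptor for TNF, a 4.52-fold peak, CFLAR, an inhibitor of caspase 8, 3 peaks of up to 4.47-fold, and CASP8 itself a 3.95-fold peak. CASP8 is the protease that cuts the product of BID. Of 7 genes that act with AIFM1 or resemble it (AIFM2, AIFM3, CHCHD4, PARP1, MIF, PPIA and HSPA1A), 0 had a peak, which has an upper bound of 41.0%.

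**Figure D4:**
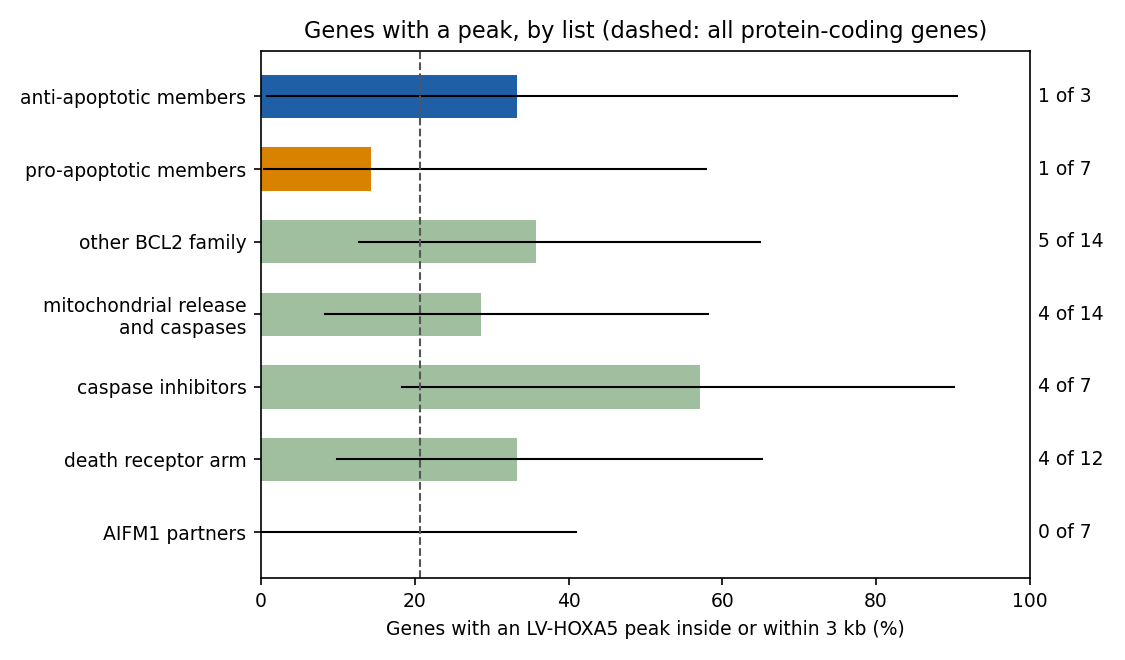
Bars give the percentage of genes in each list with an LV-HOXA5 peak inside the gene or within 3 kb (x axis, from 0), lines the exact 95% binomial intervals, the numbers at the right the counts, and the dashed line the 20.7% of all protein-coding genes. The line lay inside the interval of each list drawn, the anti-apoptotic (1 of 3) and the pro-apoptotic members (1 of 7) among them.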

How the data were processed

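The deposited peak tables of 2 CUT & Tag libraries were used. The authors removed duplicates and called peaks in each library alone with MACS 2.2.7.1 (q-value 0.05, no control library). Their tables give a pileup signal (fragments at the summit, not scaled for depth), a fold enrichment ratio over the local background, and −log10 values of p and q. The submitters' processing notes name fastp, Bowtie2, deepTools, MACS2, ChIPseeker and GRCh38.

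Local background was recovered as (pileup + 1) / fold − 1, and the Poisson p-value from it matched the one in the tables to within 0.01 (−log10) for 8017 of 8043 and 630 of 635 peaks. Genes and windows before starts came from RefSeq (GRCh38.p14). Of 20037 protein-coding genes, 15843 had a listed start. Distances ran from the edge of a peak to the gene. Peak assignment was tested on simulated data with 200 planted genes.

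The members, lists and alternatives were chosen with earlier results of these data known. Named were all members, the genes of each list with a peak (up to 6 by fold), MXD1, HOXA5 and genes that share a peak. Intervals were Clopper-Pearson for shares and exact Poisson for pileups. Python 3.11.15, NumPy 2.4.6, SciPy 1.17.1, pandas 2.3.3 and Matplotlib 3.10.9 were used.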

Additional observations from a re-analysis of the deposited data

How the results depend on the processing

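No paired analysis was possible because each condition had 1 library without a replicate number, and for the same reason no replicate could be left out. AIFM1 had its peak under every alternative in which it was counted. BCL2L1 lost its peak, so that members fell to 1 of 10 and anti-apoptotic members to 0 of 3, with q-values up to 0.001, with a fold at or above the median and within 3 kb of an end only. Within 3 kb of a listed start only, they fell to 1 of 9 and 0 of 2, as MCL1 had no listed start. Leaving AIFM1 out, an alternative chosen after seeing the data, gave 1 member and 0 pro-apoptotic members with a peak. The other 54 genes came to 7 with a fold at or above the median and to 10 within 3 kb of a start. The background of 20.7% moved to 17.9% (q-value), 11.2% (fold), 19.5% (window of 1 kb), 24.7% (10 kb), 14.9% (ends only) and 15.3% (starts only), and that of 0.649% in the LV-HOXA5-NC list to 0.409% (q-value), 0.339% (fold), 0.828% (10 kb), 0.170% (ends only) and 0.0694% (starts only). The median distance of the members moved from 72.4 to 165 kb with a fold at or above the median. The 12 peaks within 100 kb became 4 with that fold, 7 within 50 kb and 52 within 500 kb. These alternatives keep fewer peaks or another window by construction. The other 40 of 67 comparisons stayed within 1.5 times, or within the interval of the percentage. The few fragments of the LV-HOXA5-NC cells limited every statement about control peaks.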
